A study of Rattus norvegicus with 2 samples.

Results

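Transcription factors that set enteroendocrine cell fate (9 listed) were read in single cells of the rat proximal jejunum: Neurog3, Neurod1, Insm1, Nkx2-2, Pax4, Pax6, Isl1, Rfx6 and Fev. They were taken by gene symbol, and 8 of the 9 listed factors, out of 32883 genes in the matrices, had a row under that symbol, so that Insm1 is not analysed here. The epithelium came from 2 adult male Sprague Dawley rats of 6 to 8 weeks, an outbred strain, fasted overnight, with 1 droplet-based 3′ library per rat. The rats were not treated differently, so cell classes were compared, with each rat as 1 replicate (n = 2). Rat 1 held 12033 barcodes and rat 2 held 8252 barcodes, of which 9345 and 5523 had over 1000 UMIs and at most 40% mitochondrial UMIs. A UMI is a molecular tag that lets copies of 1 captured transcript count once. Endocrine cells were those with at least 3 UMIs of Chga and Chgb, which encode chromogranins of the secretory granule, and they numbered 44 in rat 1 and 15 in rat 2. Cycling crypt cells, gated by 14 cell cycle genes, numbered 430 and 21, and other epithelial cells numbered 5565 and 1958. Median depth was 5908.5 and 10647 UMIs in endocrine cells, 13229 and 18088 UMIs in cycling crypt cells and 10832 and 13590 UMIs in other epithelial cells. Levels are given per 1000000 UMIs of the class (CPM) and are not divided by transcript length because a 3′ library counts 1 end of each transcript.

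Enteroendocrine cells are the scattered hormone-secreting cells of the gut lining. Their fate is set in crypt progenitors by Neurog3, a basic helix-loop-helix factor that is switched on briefly, under restraint by Notch signaling, and is off again in mature cells. Neurod1, Insm1, Nkx2-2, Pax4, Pax6, Isl1, Rfx6 and Fev act after it, and several of them also set which hormone a cell makes. Enterochromaffin cells make serotonin through Tph1, while other endocrine cells make peptides such as somatostatin (Sst), GIP, glucagon-family peptides (Gcg), neurotensin (Nts) and cholecystokinin (Cck).

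The endocrine label was checked against 6 granule genes that the gate did not use, namely Scg2, Scg3, Scg5, Pcsk1, Pcsk1n and Cpe. Summed, they reached 3301 CPM in endocrine cells of rat 1 and 3828 CPM in rat 2, with no other class above 5.41 CPM, and Pcsk1n was at 0 throughout. Other signals shared the gate. The enterocyte markers Fabp1, Apoa1, Apoa4 and Alpi summed to 9712 and 13558 CPM in endocrine cells. They were at 78795 and 63346 CPM in other epithelial and 7490 and 1513 CPM in cycling crypt cells. The goblet markers Tff3, Agr2, Clca1 and Fcgbp summed to 6190 and 12551 CPM in endocrine cells. They were at 4590 and 9668 CPM in other epithelial and 7650 and 36888 CPM in cycling crypt cells. Of the endocrine cells, 14 of 44 and 3 of 15 also passed the leukocyte gate, 7 and 4 passed the goblet/Paneth gate, and 3 and 0 passed the cycling gate. Summed Ptprc, Cd3e and Cd3g were at 262 and 187 CPM in endocrine cells, against 7.86 to 26.8 CPM in the other classes, and each of the 3 genes was found in the endocrine cells of both rats. Cells with at least 2 UMIs of the leukocyte genes were removed from the other classes but kept among endocrine cells. This contrast is therefore set in part by the order of the gates. The 4 tuft markers together had 0 UMIs in the endocrine cells of rat 1 and 3 UMIs in those of rat 2. The 6 markers of enteric neurons and glia summed to 53.1 and 38.5 CPM in endocrine cells, with a UMI in 22.7% and 26.7% of them, against 0 to 1.35 CPM in the other classes. Of these 6 markers 2 were at 0 in the endocrine cells of rat 1 and 4 in those of rat 2, with Sox10, a glial marker, at 0 in every class. The part of these signals in the levels below was not tested, except where a value without the cells of 2 gates is given. The rats shared 28 barcodes, of which 0 were endocrine.

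The promoters of the most abundant members, and of Neurog3 at the head of the cascade, are shown because members of the set are thought to act on one another. The basic helix-loop-helix members bind the E-box CANNTG and the homeodomain members bind AT-rich sites, while Fev binds other, ETS-type sites that were not searched. RefSeq (GRCr8, not the rn6 build of the counts) held a promoter for 7 of the 9 members. The 250 bases before each gene start were searched on both strands. Capitals mark CANNTG, a motif that also covers CAGATG and CAGCTG. Sequences run 5′ to 3′ on the gene's strand.

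Neurog3, chr20:30622283-30622532, plus strand: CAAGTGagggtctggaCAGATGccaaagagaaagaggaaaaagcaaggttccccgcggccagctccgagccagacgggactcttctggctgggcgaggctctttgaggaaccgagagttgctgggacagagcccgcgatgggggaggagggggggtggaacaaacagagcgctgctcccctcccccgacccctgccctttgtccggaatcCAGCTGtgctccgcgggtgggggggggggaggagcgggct

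Neurod1, chr3:84770455-84770704, minus strand: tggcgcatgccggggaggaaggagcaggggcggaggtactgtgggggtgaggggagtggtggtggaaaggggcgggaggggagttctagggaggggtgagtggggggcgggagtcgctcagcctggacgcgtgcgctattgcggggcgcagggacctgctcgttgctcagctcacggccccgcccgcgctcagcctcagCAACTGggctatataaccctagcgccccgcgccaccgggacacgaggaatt

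Isl1, chr2:49823443-49823692, minus strand: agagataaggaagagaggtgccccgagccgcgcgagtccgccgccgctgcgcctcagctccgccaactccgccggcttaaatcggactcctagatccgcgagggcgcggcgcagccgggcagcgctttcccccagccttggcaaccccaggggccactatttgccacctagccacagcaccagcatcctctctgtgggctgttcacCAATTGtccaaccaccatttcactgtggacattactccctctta

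Fev, chr9:83891719-83891968, minus strand: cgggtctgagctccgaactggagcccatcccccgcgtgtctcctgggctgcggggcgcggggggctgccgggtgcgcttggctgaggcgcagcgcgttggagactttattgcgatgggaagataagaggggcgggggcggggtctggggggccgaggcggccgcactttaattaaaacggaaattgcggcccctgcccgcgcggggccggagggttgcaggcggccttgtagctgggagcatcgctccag

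A CANNTG was in the windows of 3 of the 7 members, with 3 matches in Neurog3 and 1 each in Neurod1 and Isl1, while 65.5% of all 33469 promoters in the table held at least 1. CAGATG and CAGCTG each stood in the window of 1 member, Neurog3, against 14.0% and 12.0% of all promoters. AAGTG, the core letters bound by Nkx2-type homeodomains, was in 2 of the 7 windows (Neurog3, where it lies within a CANNTG, and Fev) against 40.6% of all promoters. TAAT, a homeodomain core, was in 3 of the 7 windows (Nkx2-2, Isl1 and Fev) against 57.0% of all promoters. These matches describe letters in a window and not binding.

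Neurog3, the factor that starts the endocrine program, had 0 UMIs in the 44 endocrine cells of rat 1 and 0 UMIs in the 15 endocrine cells of rat 2. Set against 3 counts, these allow levels of up to 8.84 and 16.5 CPM and up to 6.82% and 20.0% of cells with a UMI, and they set no limit on cells that express the gene without a captured UMI. It was also at 0 in the cycling crypt cells of both rats. Neurod1, its direct target and the most abundant member, reached 274 CPM (93 UMIs) in the endocrine cells of rat 1 and 402 CPM (73 UMIs) in those of rat 2. In other epithelial cells it was at 0.392 and 0.0636 CPM, so that endocrine cells of each rat lay above every other class. Isl1, a LIM homeodomain factor of peptide-hormone cells, followed with 121 CPM (41 UMIs) and 149 CPM (27 UMIs). Fev, an ETS factor, was at 82.5 CPM (28 UMIs) and 116 CPM (21 UMIs). Isl1 and Fev lay below Neurod1 in both rats, and the order between them was within counting error.

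The remaining members were low. Pax6, a paired-box homeodomain factor, had 11 and 6 UMIs in endocrine cells (32.4 and 33.0 CPM). Rfx6, a winged-helix factor, had 8 and 10 UMIs (23.6 and 55.0 CPM). Pax4, a paired-box repressor, had 5 UMIs in rat 1 and 1 UMI in rat 2, and Nkx2-2, an NK-type homeodomain factor, had 4 and 3 UMIs. Neighbors in this order were set apart by exact 95% intervals of the ratio of their UMIs. Neurod1 exceeded Isl1 by 2.27-fold (1.55 to 3.36) in rat 1 and by 2.70-fold (1.72 to 4.37) in rat 2. The step from Isl1 to Fev was 1.46-fold (0.884 to 2.46) and 1.29-fold (0.700 to 2.39). Fev exceeded Pax6, the next member in rat 1, by 2.55-fold (1.23 to 5.67), while in rat 2 the next member was Rfx6, at 2.10-fold (0.947 to 4.99). No later neighbors differed beyond counting error. These intervals, and the limits set by 3 counts, hold for counting error alone, and the order compares captured molecules, whose capture may differ between genes.

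**Figure D1:**
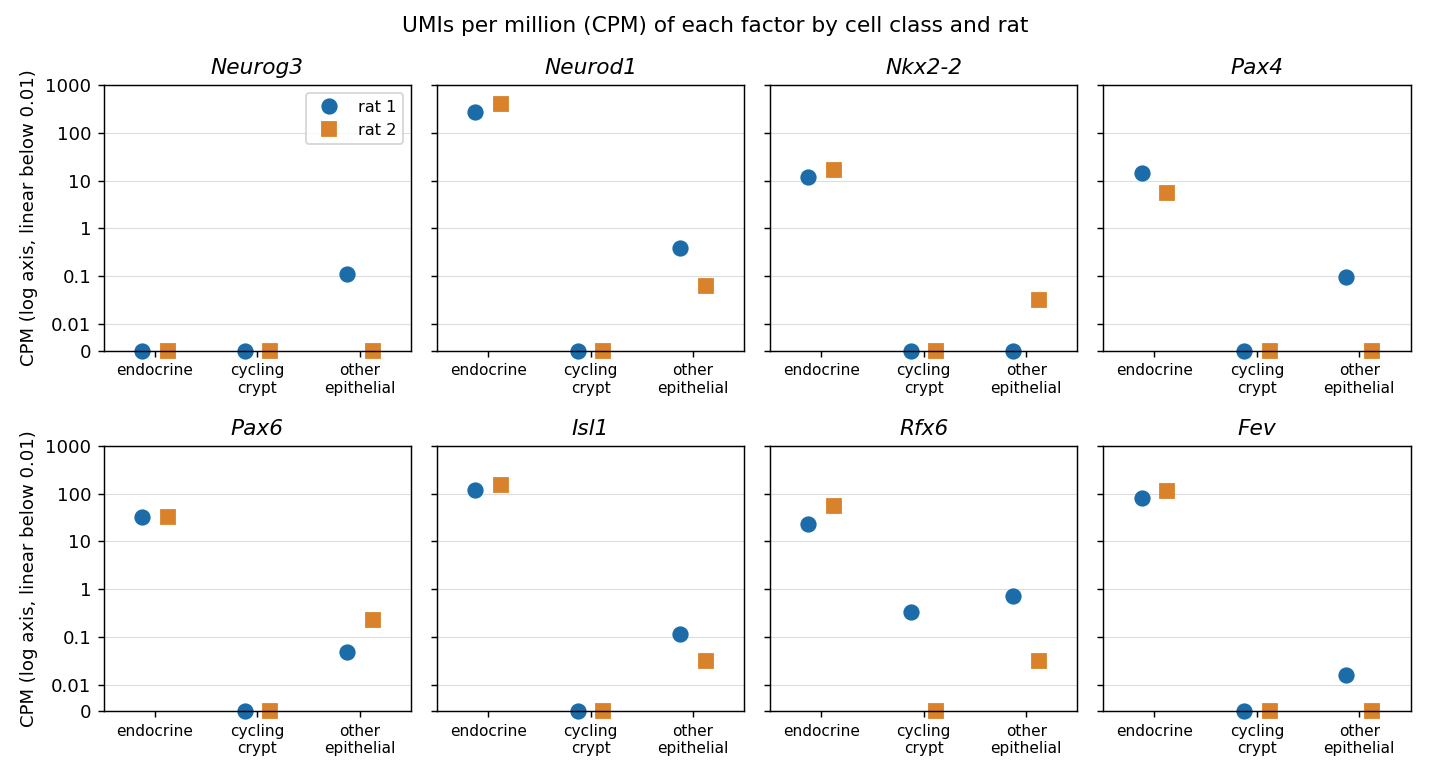
CPM of the 8 members read (log vertical axis, linear below 0.01) in endocrine, cycling crypt and other epithelial cells, with 1 point per rat and no error bar. In endocrine cells 7 members lie between 5.50 and 402 CPM and Neurog3 lies at 0, while in the other 2 classes no member exceeds 0.735 CPM.

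Endocrine cells were compared with other epithelial cells on UMIs summed per rat and class (edgeR quasi-likelihood test, adjusted over 9834 genes, n = 2 rats). Of the 8 members, 5 had counts high enough to be tested, and they passed that filter through their endocrine sums, so their number is no support in itself. Neurod1, Isl1, Fev, Pax6 and Rfx6 were each called higher, where 3.99% of all genes tested were called higher. Fev rose by 11.93 ± 0.82 on the log2 scale (SE, adjusted p = 0.000915). Each edgeR SE is the fold change divided by the square root of its F statistic. Other epithelial cells held 1 Fev UMI in rat 1 and 0 in rat 2, so the size of its fold change is poorly fixed. Within rat 1 the Fev ratio was 5056 (836 to 206733), and within rat 2 it was at least 1210. Isl1 rose by 10.08 ± 0.73 (adjusted p = 0.00105) and Neurod1 by 9.88 ± 0.88 (adjusted p = 0.00251). Pax6 rose by 7.43 ± 1.10 (adjusted p = 0.0144) and Rfx6 by 6.05 ± 1.23 (adjusted p = 0.0263). The direction was the same in both rats for each of these genes, and each was also called without the cells that passed 2 gates (adjusted p from 0.000187 to 0.0256). With a limit of 20% mitochondrial UMIs the calls of Pax6 (adjusted p = 0.0776) and Rfx6 (adjusted p = 0.0734) were lost. Within each rat the Neurod1 level of endocrine cells was 699.7 times that of other epithelial cells in rat 1 (443 to 1146) and 6311 times in rat 2 (1686 to 53096). Of the 24 Neurod1 UMIs in other epithelial cells of rat 1, 7 and 9 came from 2 cells that also had Neurog3. Intervals of such ratios hold for counting error alone and do not cover this clustering in few cells. For Rfx6 the ratio was 32.1 in rat 1 (13.1 to 68.8) and 1729 in rat 2 (246 to 75038), which had 1 UMI in other epithelial cells.

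Against cycling crypt cells, Neurod1, Isl1, Fev and Pax6 were called higher in endocrine cells in the same model, where 1.96% of all genes tested were called higher (adjusted p = 0.00667, 0.00523, 0.00526 and 0.0399). The call of Pax6 was lost with a limit of 20% mitochondrial UMIs (adjusted p = 0.115). No UMI of these 4 genes was found in the cycling crypt cells of either rat, so their fold changes are bounds. Against a floor of 3 UMIs, Neurod1 was at least 542-fold higher in rat 1 and at least 45.4-fold higher in rat 2, and Isl1 was at least 239-fold and at least 16.8-fold higher. Fev was at least 163-fold higher in rat 1 and at least 13.1-fold higher in rat 2. For Pax6 the bounds were at least 64.1-fold and at least 3.73-fold. The bounds of rat 2 are lower because its 21 cycling cells held 338975 UMIs, against 5931540 UMIs in rat 1. Rfx6 had 2 UMIs among the cycling cells of rat 1 and 0 in rat 2, and its difference from endocrine cells was not called (log2 fold change 6.89 ± 1.62, adjusted p = 0.0764). With the rat as a block, Rfx6 was called (7.42 ± 1.58, adjusted p = 0.0161) where 5.46% of all genes tested were called higher.

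Pax4, Nkx2-2 and Neurog3 were under the filter on low counts. Without that filter, Nkx2-2 was called higher in endocrine than in other epithelial cells (log2 fold change 8.82, adjusted p = 0.000149) and so was Pax4 (6.83, adjusted p = 0.00223), where 5.21% of 17368 genes were called higher. Both were also called against cycling crypt cells (adjusted p = 0.0192 and 0.0310), where 3.88% of genes were called higher. These calls rest on 7 UMIs of Nkx2-2 and 6 UMIs of Pax4 over the 59 endocrine cells. Neurog3 was not called in either comparison (adjusted p = 0.963 and 1).

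At least 1 member had a UMI in 39 of 44 endocrine cells of rat 1 (88.6%, exact 95% interval 75.4 to 96.2) and in 13 of 15 of rat 2 (86.7%, 59.5 to 98.3). Neurod1 alone was detected in 33 of 44 cells (75.0%, 59.7 to 86.8) and 12 of 15 cells (80.0%, 51.9 to 95.7). The background share of Neurod1, in other epithelial cells of greater median depth, was 0.144% in rat 1 and 0.102% in rat 2. Fev was detected in 17 of 44 and 9 of 15 cells and Isl1 in 19 of 44 and 3 of 15 cells. The 27 Isl1 UMIs of rat 2 came from only 3 cells, with 12, 11 and 4 UMIs. The shares depended on depth. After each cell was thinned to 1000 UMIs, Neurod1 was detected in 27.3% and 33.3% of endocrine cells and any member in 45.5% and 60.0%. After thinning to 5000 UMIs, which left out 17 cells of rat 1 and 2 cells of rat 2, any member was detected in 74.1% and 84.6% of cells.

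**Figure D2:**
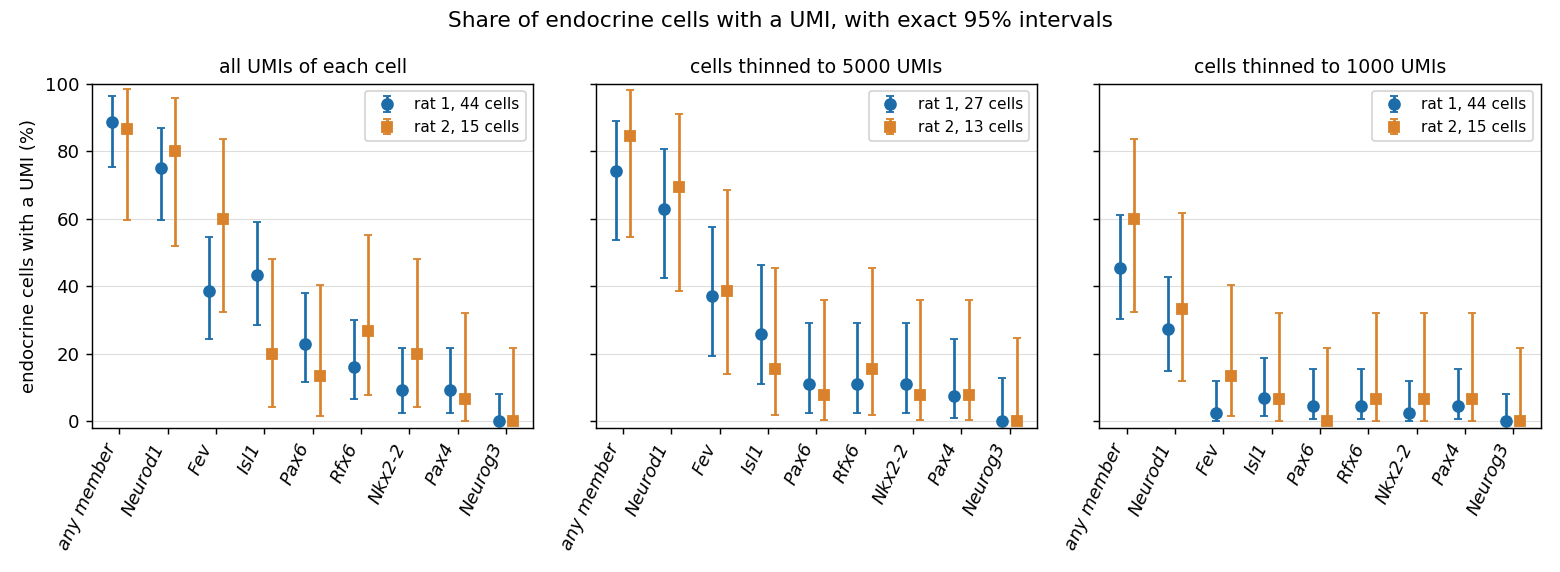
Percent of endocrine cells with at least 1 UMI of any member and of each of 8 members, with exact 95% intervals, in rat 1 (circles) and rat 2 (squares), with all UMIs, after thinning to 5000 UMIs and after thinning to 1000 UMIs. The share with any member falls from 88.6% and 86.7% with all UMIs to 45.5% and 60.0% at 1000 UMIs.

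Members were found together in single cells. Over both rats, 15 of 59 endocrine cells had a UMI of 1 member, 16 of 2 members, 10 of 3 members, 6 of 4 members, 3 of 5 members and 2 of 6 members. Neurod1 was present in 12 of the 12 cells with Pax6, 19 of the 22 cells with Isl1 and 22 of the 26 cells with Fev. Isl1 was present in 5 of the 5 cells with Pax4. With Neurod1 in 45 of 59 cells, overlap with it is frequent whatever the other gene, and deeper cells show more members, so these counts are a description. No member UMI was found in 7 endocrine cells. Of these, 3 had 3 UMIs of Chga and Chgb, the lowest the gate admits. Another had 28 UMIs of the leukocyte genes, and a cell of 32184 UMIs had 114 cycling gene UMIs and 20 leukocyte gene UMIs. The other 2 had 1176 and 6135 UMIs with 167 and 1043 UMIs of Chga and Chgb.

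The members were next described by the hormone a cell made. Cells were grouped by the most abundant of Sst, Gip, Gcg, Nts and Cck where it made up at least 1% of UMIs, and otherwise by at least 3 UMIs of Tph1, a grouping chosen after these values were seen. It gave 8 Sst, 6 Gip, 2 Gcg, 16 Nts, 2 Cck and 19 Tph1 cells, and 6 cells with no such hormone. The Nts and Gcg cells were all from rat 1 and the Cck cells all from rat 2, so group and rat cannot be told apart for them.

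**Figure D3:**
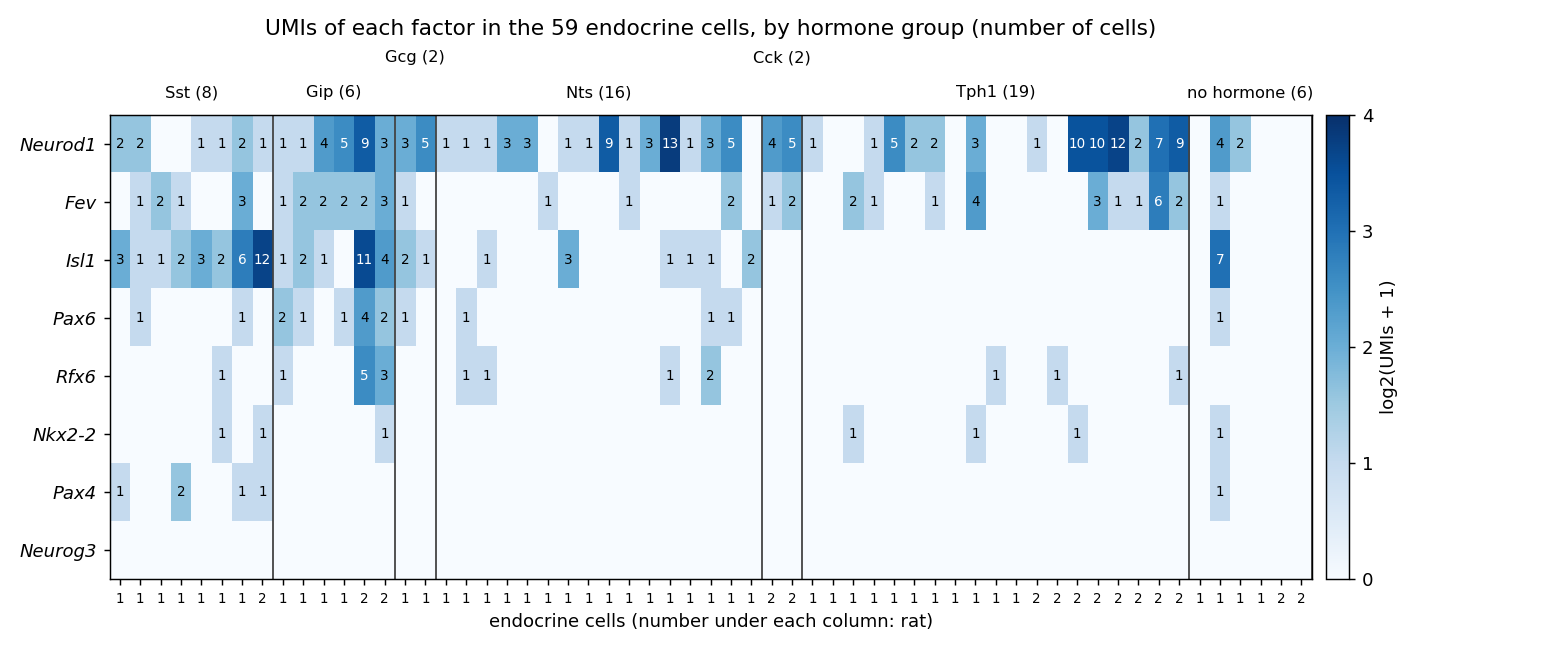
UMIs of each of 8 members (rows) in each of the 59 endocrine cells (columns, with the rat under each column), sorted by hormone group, with color for log2(UMIs + 1) and the number of UMIs printed where it is above 0. Isl1 fills the row over 8 of 8 Sst cells and is empty over the 19 Tph1 cells, Neurod1 is spread over all groups and Neurog3 is empty.

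Isl1 was found in 8 of 8 Sst cells, with 30 UMIs (494 CPM), and in 5 of 6 Gip cells, with 19 UMIs (272 CPM). It had a UMI in 2 of 2 Gcg cells and 6 of 16 Nts cells, and in 0 of 19 Tph1 cells and 0 of 2 Cck cells. Pax4 showed a narrower pattern, with 5 of its 6 endocrine UMIs in 4 Sst cells and the other in a cell with no hormone. Pax6 was highest in Gip cells (10 UMIs in 5 of 6 cells, 143 CPM) and was at 0 in the 19 Tph1 cells. Rfx6 was also highest in Gip cells (9 UMIs, 129 CPM), of which 8 UMIs came from the 2 Gip cells of rat 2.

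Neurod1 was found in every group when the rats were summed, but the rats ordered the groups differently. In rat 1 it was at 172 CPM in Sst cells, 173 CPM in Tph1 cells, 343 CPM in Nts cells and 351 CPM in Gip cells. In rat 2 it was at 736 CPM in Tph1 cells and 311 CPM in Gip cells, and the 2 cells with no hormone had 0 UMIs. Fev was found in 6 of 6 Gip cells, 9 of 19 Tph1 cells and 3 of 16 Nts cells. Nkx2-2 had 3 UMIs in Tph1 cells, 2 in Sst cells, 1 in a Gip cell and 1 in a cell with no hormone. A single UMI weighs 52.1 CPM in the Gcg cells, so low values there are not resolved.

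Another 4 endocrine factors, singled out after their values were seen, were also uneven over the groups. Lmx1a, a LIM homeodomain factor of serotonin cells, had 59 UMIs in 14 of 19 Tph1 cells and 0 UMIs in every other group. Hhex, a homeodomain factor of somatostatin cells, had 21 of its 22 UMIs in Sst cells. Pdx1, a homeodomain factor of the proximal gut and pancreas, had 14 UMIs in Sst cells, 6 in Gip cells and 0 in Tph1 cells. In rat 2 Pdx1 also reached 28.4 CPM in other epithelial cells, against 0.0653 CPM in rat 1. Etv1, an ETS factor, was at 469 CPM in Gcg cells, 216 CPM in Nts cells and 446 CPM in Cck cells. It was at 0 in the 19 cells of the Tph1 group, which leaves out cells led by a peptide hormone. The 2 Cck cells, which held 18 UMIs of Etv1, also had 69 and 87 UMIs of Tph1.

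**Figure D4:**
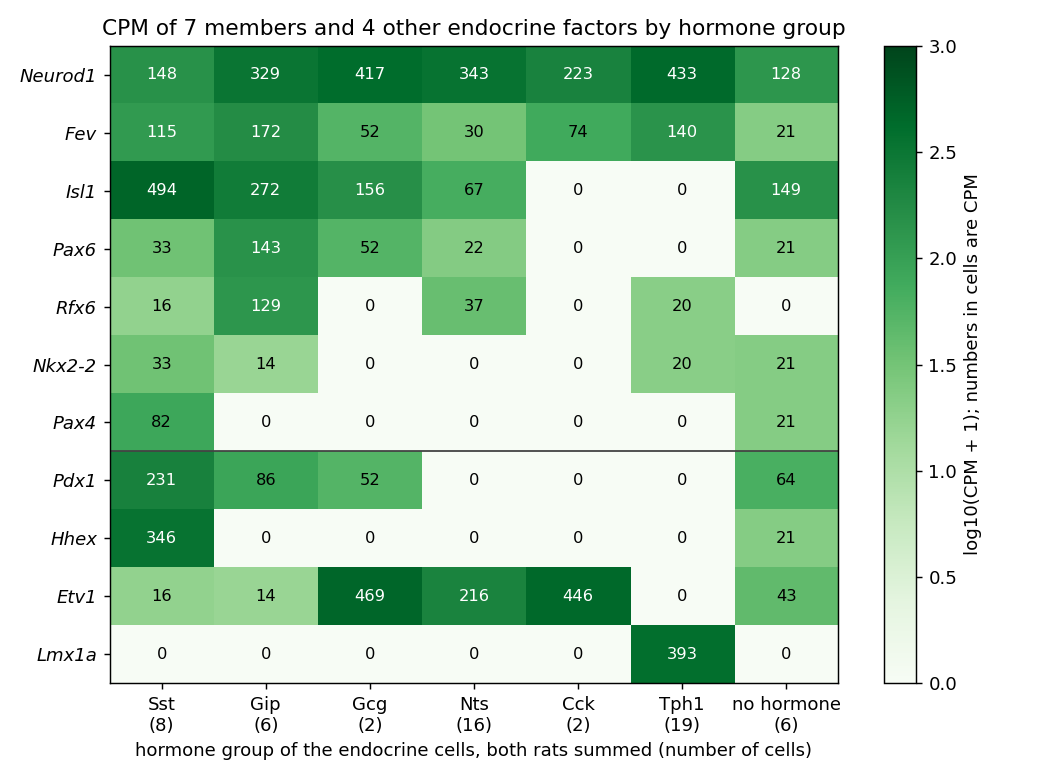
CPM of 7 members and 4 other endocrine factors (rows) in the hormone groups of endocrine cells (columns, number of cells in parentheses), both rats summed, with color for log10(CPM + 1) and CPM printed in each field. Isl1 is highest in Sst cells at 494 CPM, Lmx1a is seen in Tph1 cells alone at 393 CPM, and Neurod1 is above 0 in every column.

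The variation among endocrine cells was tested by comparing cells with at least 3 UMIs of Tph1 (12 in rat 1 and 10 in rat 2) with the other endocrine cells (32 and 5). Isl1 had 1 UMI in the 12 Tph1 cells of rat 1, against 40 UMIs in 18 of the 32 other cells. In rat 2 it had 0 UMIs in the 10 Tph1 cells, against 27 UMIs in 3 of the 5 other cells. The single UMI came from an Nts cell that also had 5 UMIs of Tph1. On sums per rat, edgeR called 0% of the 1302 genes tested, where 91 genes had an unadjusted p under 0.05 and DESeq2 called 23 genes. Isl1 had a log2 fold change of -5.79 ± 1.08 and was not called (adjusted p = 0.0868). With the rat as a block, Isl1 fell by 5.74 ± 0.87 and was called (edgeR adjusted p = 6.87e-09), where 3.07% of genes tested were called lower. With 2 rats this blocked fit leaves little to estimate the spread of a single gene. Its p-value therefore rests mostly on spread shared over genes and does not measure the spread of Isl1 between rats. DESeq2 without the block also called Isl1 (adjusted p = 0.0248). Neurod1 was not called (0.31 ± 0.75, adjusted p = 0.999), and it moved in opposite directions in the 2 rats (log2 differences of -0.94 and 1.53). Pax6 and Pax4 had 17 and 6 UMIs in other endocrine cells and 0 in Tph1 cells, and were under the filter on low counts. Without that filter neither was called in the edgeR test (adjusted p = 0.0656 and 0.969), where 0.343% of genes tested were called lower. Of 5 tested genes in the list of other endocrine transcription factors, 0 were called. Lmx1a was at 8.14 ± 1.35 (edgeR adjusted p = 0.0868). It had 0 UMIs in the other endocrine cells of both rats, so this fold change is a bound. The log2 differences of single rats, with a prior count of 2, were 3.59 and 4.73.

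Neurog3 itself was found in 4 cells, all of rat 1, with 12 UMIs in all and 0 UMIs of Chga and Chgb in each. Rat 2 had 0 Neurog3 UMIs in 8252 barcodes. In 2 of these cells, which passed the goblet/Paneth gate with 5163 and 5710 UMIs, Neurog3 had 3 and 4 UMIs, Neurod1 had 7 and 9 UMIs, and Pax4 had 4 and 0 UMIs. The other 2 cells, with 8047 and 18056 UMIs, were left out by the leukocyte gate with 7 and 8 leukocyte gene UMIs beside 78 and 104 epithelial UMIs. They had 1 and 4 Neurog3 UMIs and 0 Neurod1 UMIs, and 4 and 11 UMIs of the cycling genes. The first of them had 2 UMIs of Pax4 and 1 of Nkx2-2, and the second had 20 UMIs of Olfm4, a stem cell marker, and 4 of Mki67.

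Across the 4 Neurog3 cells, Neurod1 was at 433 CPM and Pax4 at 162 CPM, against 274 and 14.7 CPM in the endocrine cells of rat 1. Isl1, Pax6, Rfx6 and Fev had 0 UMIs in them. A single UMI weighs 27.0 CPM in these cells, while these genes were at 121, 32.4, 23.6 and 82.5 CPM in the endocrine cells of rat 1. The zeros of Pax6 and Rfx6 are therefore not resolved from those levels, and that of Fev is near the limit of 3 counts. Hes6, a Hes-family factor that opposes Hes1, was at 541 CPM, against 141 CPM in endocrine cells and 171 CPM in the rest of the goblet/Paneth gate. Prox1, a homeodomain factor of secretory and endocrine cells, was at 135 CPM against 2.84 CPM in the rest of that gate, and Foxa2, a forkhead factor, was at 189 CPM against 19.0 CPM. Atoh1, a factor of the secretory lineage, had 0 UMIs in the 4 cells and was at 236 CPM in the rest of the gate. The 2 of them inside that gate held 16 of its 18 Neurod1 UMIs. The cells were chosen by Neurog3 and come from 1 animal, so these values carry no test.

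Outside the endocrine gate the members were rare, and Rfx6 and Pax6 are described there beside Neurod1. Rfx6 had 44 UMIs in 43 of the 5040 remaining epithelial cells of rat 1 (0.853%, 0.618 to 1.15), which are other epithelial cells outside the goblet/Paneth, tuft and CHE gates. CHE cells, the CFTR high expressers of rat and human gut, were gated by Best4 and Otop2. The same class of rat 2 had 1 Rfx6 UMI in 1577 cells. Endocrine cells of rat 1 had 8 UMIs of Rfx6 beside 93 of Neurod1, while the remaining epithelial cells had 44 beside 6. Pax6 in rat 2 had 5 UMIs in 4 of 75 CHE cells (5.33%, 1.47 to 13.1) and 2 UMIs in 2 of 117 tuft cells, and 0 UMIs in the 1577 remaining epithelial cells. Neurod1 had 0 UMIs in the CHE and tuft cells of rat 2. Its interval in the 75 CHE cells (0 to 4.80%) overlaps that of Pax6, so the 2 genes are not set apart there. The 2 Pax6 UMIs of tuft cells lie under the limit of 3 counts. Rat 1 had 0 Pax6 UMIs in 8 CHE and 108 tuft cells, too few CHE cells for a comparison with rat 2.

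Other genes of the endocrine program were read from lists. In the list of 26 other endocrine transcription factors, 15 were tested, and 9 were higher, 0 were lower and 6 were not called in endocrine against other epithelial cells. Over all 9834 genes 3.99% were called higher. The median log2 fold change of the 15 was 5.62, against -0.09 over all genes. Runx1t1, a transcriptional corepressor, rose by 9.82 (adjusted p = 0.000915) and Lmx1a by 12.38 (adjusted p = 0.00299). Of 24 secretory granule genes, 16 were tested, and 14 were higher and 0 lower, with a median of 5.86. The highest was the granin Scg3 at 12.33 (adjusted p = 0.000915). Of 16 hormone genes, 11 were tested, and 9 were higher and 0 lower. Nts (adjusted p = 0.0976) and Gcg (adjusted p = 0.0560) were not called. The log2 differences of rat 1 and rat 2 were 11.53 and 11.89 for Nts, and 12.02 and 7.73 for Gcg.

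Genes upstream of the program were read in the same way. Of 16 secretory and Notch genes, 10 were tested, and 1 was higher, 0 were lower and 9 were not called, with a median of -0.68. The gene called was Jag2, a Notch ligand, with 8 UMIs in endocrine cells of rat 1 (23.6 CPM) and 20 UMIs in those of rat 2 (110.0 CPM), against 1.44 and 2.04 CPM in other epithelial cells (log2 fold change 4.63 ± 0.81, adjusted p = 0.0181). Jag2 was also called against cycling crypt cells (adjusted p = 0.0332). Atoh1 had 2 and 0 UMIs in endocrine cells, against 25.6 and 233 CPM in cycling crypt cells, and was not called (log2 fold change -4.66 ± 1.34, adjusted p = 0.131). Against cycling crypt cells, 6 of 15 other endocrine factors, 10 of 16 granule genes and 9 of 11 hormones were called higher, where 1.96% of all genes tested were, and 0 were called lower.

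The genes whose pattern was most like that of the summed members were found by Pearson correlation of log2(CPM + 1) over 12 sums (6 classes in 2 rats), among 982 genes with at least 20 UMIs in the endocrine cells of each rat. The first was Scg5, a granule protein (r = 0.964), followed by the tachykinin precursor Tac1 (r = 0.961) and the microtubule protein Map1b (r = 0.959). Akap12, Gip, Slc18a1, Sst, Scg3, Amigo2 and Rgs4 completed the 10, down to r = 0.948. The sums share cells, depth and the endocrine gate, so r describes the likeness only. Scg5 was at 631 and 913 CPM in endocrine cells and at most 1.41 CPM in the other classes.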

How the data were processed

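Epithelium of the proximal jejunum of 2 rats was profiled by droplet-based 3′ single-cell RNA sequencing. The deposited files are unnormalized counts of UMIs for every gene in every barcode, which the authors produced by aligning to Rnor6 (rn6) in Cell Ranger. By the file headers, rat 1 was processed with version 3.1.0 and rat 2 with version 5.0.1, and the version cannot be told apart from the rat. Libraries held 99986348 and 66469907 UMIs. Samples were taken as replicates by label.

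Cells over 1000 UMIs with at most 40% mitochondrial UMIs were gated in this order: endocrine (Chga and Chgb at least 3 UMIs), non-epithelial (left out: at least 2 UMIs of Ptprc, Cd3e, Cd3g and Cd3d, over 1% hemoglobin UMIs, or under 3 UMIs of Epcam and keratins), cycling crypt (at least 3 UMIs and 0.1% of UMIs from 14 genes) and other epithelial. Doublets were not called. The leukocyte gate left out 1192 cells of rat 1 and 191 of rat 2 that had at least 20 epithelial UMIs, so a gate by ratio was added after seeing the data. UMIs were summed per rat and class and tested with edgeR 4.0.16 (R 4.3.3; TMM, default filter, quasi-likelihood, Benjamini-Hochberg, 0.05) in 1 model of 3 classes with genes of the gates left out; DESeq2 1.42.0 was an alternative. Fold changes of single rats compare log2 CPM after adding a prior count of 2. Classes of 1 animal are paired: deviations correlated at 0.135, 0.348 and 0.297 between the 3 classes and at 0.393 between Tph1 and other endocrine cells. The methods name no block, so the block is an alternative.

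Intervals are exact (Clopper-Pearson for shares) at 95%, and a count of 0 is set against 3 counts. Named genes were the members, 4 gene lists (other endocrine factors, secretory and Notch genes, granule genes, hormones), the 10 genes most alike, and the 5 most changed called genes per direction in the Tph1 comparison, of which there were none. The members and lists were chosen with earlier results of these data known. No row by symbol was used for Sox4, Mlxipl, Onecut3, Kcnb2 and Insl5. Some genes that meet these rules are left out of the text.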

Additional observations from a re-analysis of the deposited data

Results flagged for a closer look

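Members were also found outside the classes compared. Cells left out as non-epithelial held 20 member UMIs in rat 1 and 8 in rat 2, above the limit of 3 counts, and 5 of those of rat 1 were Neurog3. Barcodes below the limits on UMIs and mitochondrial share held 16 member UMIs in rat 1.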

How the results depend on the processing

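Against other epithelial and cycling crypt cells, the fold changes of the 5 tested members were above 0 in all 120 fits under the alternatives (5.90 to 15.34 on the log2 scale). These fits reuse the same rats and largely the same cells, so they are no independent support. Neurod1, Isl1, Fev and Pax6 had 0 UMIs in the cycling crypt cells of the main setting. For them that sign was all but fixed, and the largest values are bounds. The counts of genes called moved more. Against other epithelial cells 717 genes were called, and 1880 were called with the rat as a block, 1282 with DESeq2, 1907 without the filter on low counts, 1152 with 6 classes in the model and 148 with at most 20% mitochondrial UMIs. Against cycling crypt cells 205 genes were called, and the first 3 of these settings gave 889, 582 and 1018, the mitochondrial limit gave 66, and leaving out cells of 2 gates gave 362. Members called went from 5 to 3 with the mitochondrial limit against other epithelial cells and from 4 to 7 without the filter against cycling crypt cells. In the Tph1 comparison 0 genes were called, and 82 were called with the block, 23 with DESeq2, 71 without the filter and 47 without cells of 2 gates, an alternative added after seeing the data. Isl1 was the 1 member called in the first 3 of these, and Neurod1 turned to -0.0150 with the block. The leukocyte gate by ratio left 709 and 168 genes called. The causes were not tested. The share of endocrine cells of rat 1 with any member was 88.6%, and 45.5% and 74.1% after thinning to 1000 and 5000 UMIs. Without either rat no test is left, and the values of the rat that remained were 4.79 to 11.09 against other epithelial cells and 5.69 to 11.70 against cycling crypt cells. With 59 endocrine cells in all, members at a few UMIs are near the limit of detection.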
